A study of Sorghum bicolor with 96 samples.

Results

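These results describe 31 sorghum genes whose transcripts were lower after 1 h at 42 °C applied at ZT15. After 1 h at 42 °C at ZT1, ZT6 or ZT9 their transcripts were not below a limit. ZT (zeitgeber time) counts hours from the start of the day. The genes were chosen by their measured values. Counts were divided by the library total and scaled to 1000000 (CPM). The 16216 of 34129 genes with a mean of at least 2 CPM over all 96 libraries were kept. For each group the log2 of the mean CPM plus 1 was centred on the median gene of that group, and D was the centred value under stress minus that in controls. A gene was selected if D was at most -1 at ZT15 under both genotype labels of the heat experiment, above -0.7 at the other 3 times under both, and between -1 and 1 after cold at ZT1 under both labels of the cold experiment. The rule allows up to 150 genes, ranked by the larger of their 2 values of D at ZT15, and only 31 qualified, which is 0.191% of the genes kept. The values behind the rule are therefore given as a description, without tests.

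Libraries came from leaves of Sorghum bicolor plants kept at 30 °C in the day and 20 °C in the night. In the heat experiment, plants labelled RTX430 and Macia were sampled after 1 h at 42 °C or in control conditions. In the cold experiment, plants labelled SC224 and RTX430 were sampled after 1 h at 10 °C or in control conditions. Each of the 32 groups (2 experiments, 2 labels, 4 times, stress or control) holds 3 libraries. The submitters call RTX430 thermo-sensitive, and SC224 (in the cold) and Macia (in the heat) tolerant. Plant age, the hours of light and whether a library pools several plants are not given in the sources used here. The design asks how hour and genotype alter what temperature stress does to leaf transcripts. If ZT15 lay in the night, the step to the stress temperature started from 20 °C there and from 30 °C in the day. The hour, the starting temperature and the light then cannot be told apart.

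Plants exposed to heat switch on heat shock transcription factors and the chaperones these control, while transcripts of many other genes decline through less transcription and faster decay. The circadian clock and the light cycle set the level of many leaf transcripts over the day, and they also gate how strongly some genes respond to the same stress at different hours. In sorghum gene identifiers the digits before the letter G are the chromosome. The identifiers could not be paired with gene names or products here, so the 31 genes are given by identifier, without roles, and neither the leaf label nor other tissues could be checked with markers.

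Library totals ran from 1059841 to 11545393 counts, and from 2245457 to 6785701 in the heat libraries at ZT15. The RTX430 label did not hold the same genotype in both experiments: 250 genes had a median above 3 CPM under the label in one experiment and under 0.05 CPM in the other, while 6 did so between SC224 of the cold experiment and RTX430 of the heat experiment. An exchange of the cold labels was not tested. Labels are used as given, so every direction between SC224 and RTX430 goes by label. Of the 31 genes, 1 was among the genes switched in this way between any pair of labels, and it was not among the 250. In 2 libraries transcripts of other labels were mixed in. Replicate 1 of the RTX430 controls at ZT15 in the heat experiment held 300.0 CPM from 45 genes otherwise found only in Macia. It held 415 CPM from 59 genes otherwise found only under RTX430 in the cold experiment. Its fellow replicates held at most 7.89 and 5.76 CPM. In ZT15 controls of those labels themselves, these genes held 769 to 838 CPM (Macia) and 917 to 966 CPM (cold-experiment RTX430). Other labels thus seem to supply a large part of that library, a share not estimated here. Its value stands first wherever RTX430 control values at ZT15 of the heat experiment are listed. Replicate 1 of the SC224 controls at ZT1 held 194 and 130 CPM of the same genes, against at most 0.508 and 0.889 CPM in its fellows. In ZT1 controls of the labels themselves, those genes held 269 to 357 CPM (Macia) and 394 to 581 CPM (cold-experiment RTX430). Membership, the RTX430 summaries at ZT15 and the count of SC224 controls highest at ZT15 are also given without these libraries, and other values include them. Because leaves were measured in bulk, fewer cells of a type and less RNA per cell cannot be told apart.

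The 31 genes had few reads behind them. Their median of mean CPM over all libraries was 4.84, against 15.7 for all genes kept, and 19 of them lay under 10 CPM (these values are not per length of gene and describe sequencing depth, not relative abundance). At ZT15 in the heat experiment the median raw count of a member was 12 in a stress library and 61 in a control library. Of 186 pairs of a member and a stress library, 44 held at most 3 counts and 8 held 0.

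After heat at ZT15 a median of 21.1% of the control CPM was left in RTX430 (range 2.53 to 36.0%) and a median of 31.6% in Macia (range 13.5 to 41.1%). The median D was -1.46 in RTX430 and -1.23 in Macia. Every stress library lay below every control library for 25 of the 31 genes in RTX430 and 24 in Macia, where 36.1% and 28.9% of all genes kept did so. It did so under both labels for 21 of the 31, against 20.6% of all genes kept. These counts follow from the selection and carry no further information. Without the mixed RTX430 control library, a median of 20.6% of the control CPM was left in RTX430 over the 30 genes with a control level above 0, and 26 genes had every stress library below every control library, where 42.1% of all genes kept did.

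**Figure D1:**
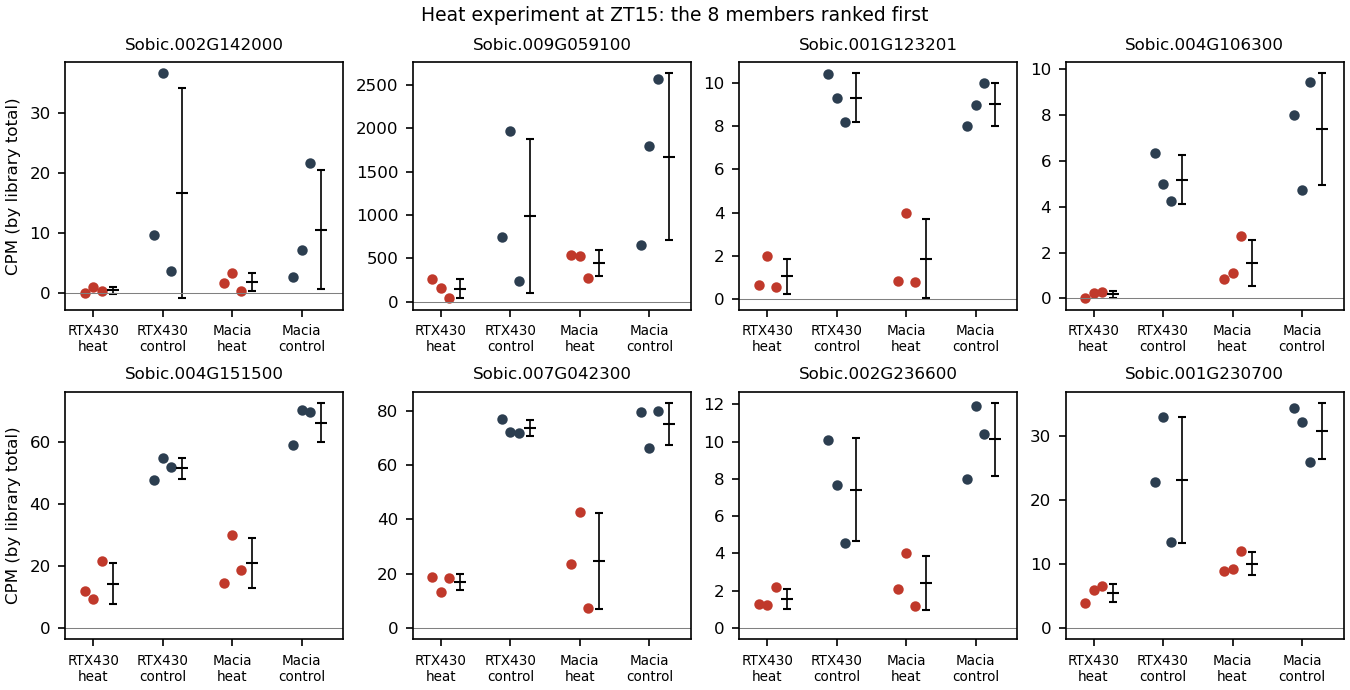
CPM by library total in the heat experiment at ZT15 for the 8 genes ranked first, with 3 heat libraries (red) left of 3 control libraries (blue) for RTX430 and then Macia; the bars are the mean and SD of the 3 libraries. The heat libraries of Sobic.007G042300 lie between 13.4 and 18.8 CPM in RTX430 and its controls between 71.9 and 77.1, while control libraries of Sobic.002G142000 and Sobic.009G059100 are spread widely.

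The gene ranked first was Sobic.002G142000, with 0, 0.989 and 0.274 CPM in heated RTX430 leaves at ZT15 and 9.69, 36.6 and 3.64 CPM in RTX430 controls. In Macia it had 1.68, 3.33 and 0.389 CPM after heat and 2.67, 7.22 and 21.7 CPM in controls. The RTX430 groups did not overlap and the Macia groups did, and without Macia control replicate 3 its D in Macia was -0.83, which no longer met the rule. Leaving out each of the 12 heat-experiment libraries of ZT15 in turn, 11 of the 31 genes qualified every time, Sobic.009G059100, Sobic.001G123201 and Sobic.001G230700 among them.

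Sobic.009G059100 had the most reads of the 31. It had 258, 160 and 37.2 CPM in heated RTX430 leaves at ZT15, against 748, 1969 and 240 CPM in RTX430 controls. In heated Macia leaves it had 537, 532 and 276 CPM, against 656, 1793 and 2564 CPM in Macia controls. Replicates of 1 group differed several-fold, so the RTX430 groups overlapped. At ZT6 the same gene went the other way in RTX430, with 297, 300 and 475 CPM after heat and 81.7, 6.87 and 19.3 CPM in controls (D of 3.16), while its D in Macia at ZT6 was -0.67.

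Other leading genes were steadier between control replicates, with few counts after heat. In heated RTX430 leaves at ZT15, Sobic.001G123201 rested on 2, 8 and 2 counts and Sobic.004G106300 on 0, 1 and 1. Sobic.001G123201 had 0.636, 1.98 and 0.547 CPM in heated RTX430 leaves against 10.4, 9.33 and 8.19 CPM in controls, and 0.840, 4.00 and 0.777 CPM in heated Macia leaves against 8.02, 8.99 and 10.0 CPM in controls. Sobic.004G106300 had at most 0.274 CPM in any heated RTX430 library and 6.34, 5.0 and 4.25 CPM in controls. In both genes every heated library lay below every control library.

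Sobic.004G151500 and Sobic.007G042300 were measured at higher counts. Sobic.004G151500 had 11.8, 9.15 and 21.6 CPM in heated RTX430 leaves against 47.7, 54.6 and 51.9 CPM in controls, and 14.3, 30.0 and 18.7 CPM in heated Macia leaves against 58.8, 70.1 and 69.5 CPM in controls. Sobic.007G042300 had 18.8, 13.4 and 18.3 CPM in heated RTX430 leaves against 77.1, 72.3 and 71.9 CPM in controls. Its heated Macia libraries held 23.5, 42.9 and 7.38 CPM against 79.7, 66.3 and 79.9 CPM in controls, and the lowest of these decided its place: without Macia stress replicate 3 its D in Macia was -0.86.

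Sobic.002G236600 and Sobic.001G230700 completed the first 8, with 21.1% and 23.6% of the control CPM left in RTX430 and 23.9% and 32.5% in Macia. Among the genes with the highest control levels at ZT15, Sobic.001G356600 had 27.7, 27.7 and 46 CPM in heated RTX430 leaves against 101, 97.3 and 113 CPM in controls, and 21.4, 18.2 and 38.1 CPM in heated Macia leaves against 98.0, 109 and 112 CPM in controls. Its heated and control libraries did not overlap under either label. Sobic.003G301500 was the opposite case, with 17.5, 118 and 16.2 CPM in heated RTX430 leaves against 91.7, 136 and 305 CPM in controls, so that its groups overlapped, as they did in Macia (25.6, 71.1 and 35.8 CPM against 109, 56.1 and 166 CPM).

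Sobic.009G113600 met the rule through a single library. In RTX430 at ZT15 it had 0, 0 and 0.274 CPM after heat and 8.94, 0 and 0 CPM in controls, and the 8.94 CPM stood in the mixed library. Without that library its D in RTX430 was 0.59, but only 1 count after heat and 0 in controls were left, so this value shows no rise. In Macia it had 5.04, 7.55 and 9.33 CPM after heat against 24.5, 17.2 and 22.1 CPM in controls, without overlap. Of the 3 other genes that no longer qualified without the mixed library, Sobic.004G130800 had a D of -0.73, Sobic.002G276100 of -0.70 and Sobic.001G304500 of -0.94 in RTX430.

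Genes at the edge of the rule differed little across it. The last 3 inside, by the larger D at ZT15, were Sobic.001G304500 (-1.04), Sobic.002G276100 (-1.03) and Sobic.002G280500 (-1.03). The nearest 3 outside that met every other criterion were Sobic.001G204300 (-0.996), Sobic.009G031100 (-0.98) and Sobic.002G215100 (-0.96). Sobic.002G280500 was also among the least even: its heated Macia libraries held 2.94, 1.11 and 0.777 CPM against 0.445, 20.0 and 15.3 CPM in controls.

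The D of RTX430 lay below that of Macia at ZT15 in 24 of the 31 genes (77.4%), with a median RTX430 minus Macia difference of -0.31. Among the other 1583 genes with D at most -1 at ZT15 under both labels this held for 66.8%, with a median of -0.23. Without the mixed RTX430 control library it held for 22 of the 31, with a median of -0.23, and for 66.8% of 1587 other genes, with a median of -0.22. The widest gap was in Sobic.004G113900, with a D of -2.73 in RTX430 and -1.23 in Macia. Its heated libraries held 0.318, 0.247 and 0.821 CPM in RTX430 and 5.04, 7.33 and 1.55 CPM in Macia. The gap ran the other way in Sobic.002G280500, with D of -1.03 in RTX430 and -2.07 in Macia. No test was made between labels, since both values entered the rule.

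**Figure D2:**
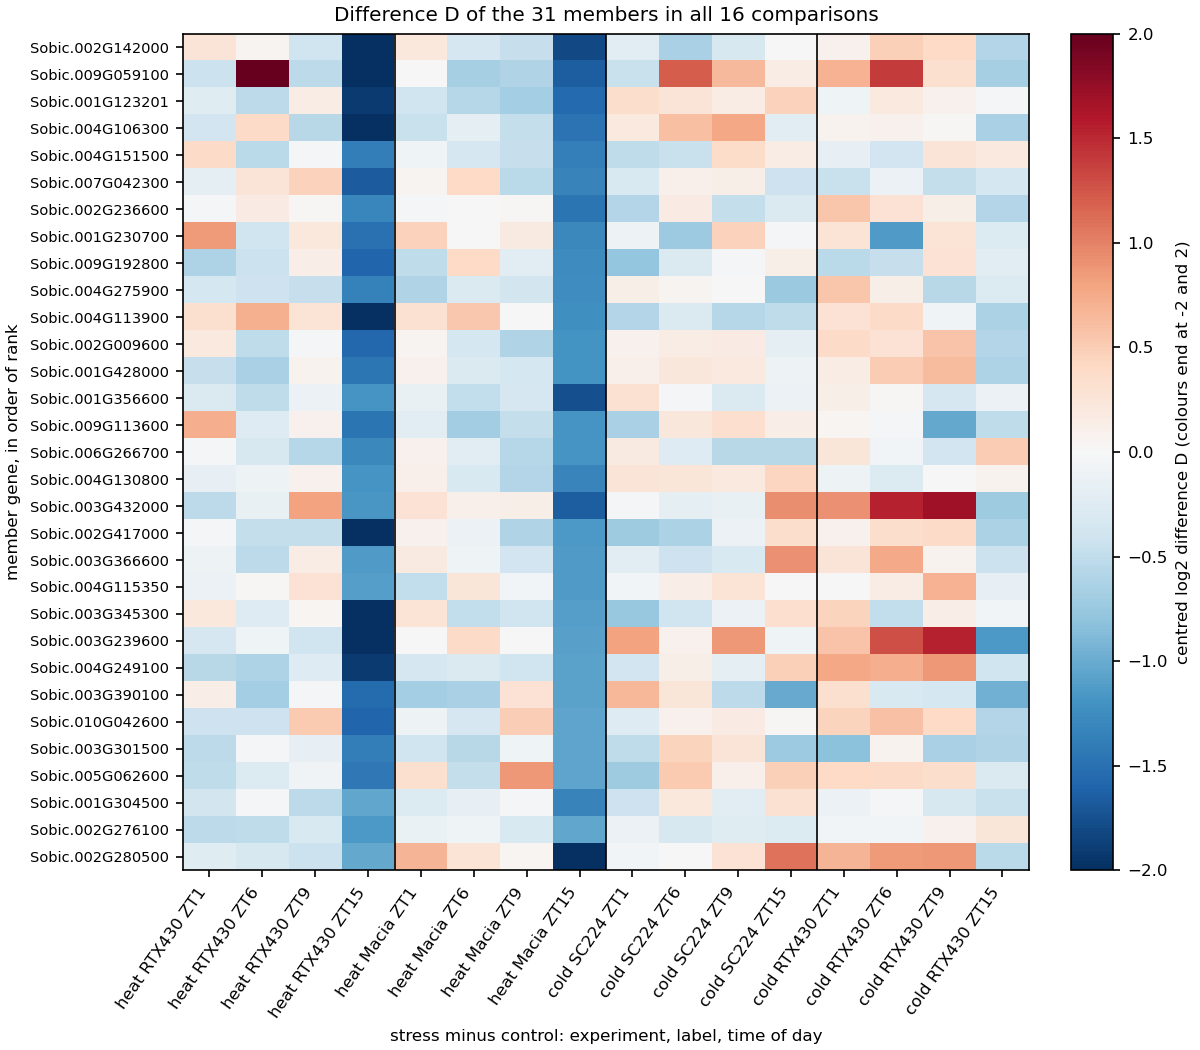
Centred log2 difference D, stress minus control, of the 31 genes (rows, in order of rank) in 16 comparisons of experiment, label and time (columns); red is higher and blue lower under stress, and colours end at -2 and 2. The ZT15 columns of the heat experiment are blue in every row by selection, the other heat columns hold no value of -0.7 or less and the cold ZT1 columns none beyond -1 or 1 by selection, and the cold columns at ZT6, ZT9 and ZT15 are mixed.

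Of the 1614 genes with D at most -1 at ZT15 under both heat labels, the 31 were 1.92%. The rest failed at another point of the rule: 1291 after heat at ZT1, 1269 after heat at ZT6, 1207 after heat at ZT9 and 611 after cold at ZT1, with overlaps among these counts. Failing at a single point was less frequent, with 65 genes for heat at ZT1 alone, 36 for ZT6 alone, 40 for ZT9 alone and 22 for cold at ZT1 alone. Most genes with a low D at ZT15 therefore had a D of -0.7 or less at another time under at least 1 label.

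Whether the 31 genes fell only at ZT15 depended on the scale. Centring subtracted the shift of the median gene, which for ZT1 was -0.73 (RTX430) and -0.68 (Macia), and for ZT15 -0.41 (RTX430) and -0.24 (Macia). With library totals alone, 23 of the 31 genes were at or under -0.7 in RTX430 at ZT1, 15 in Macia and 12 in both, with medians of -0.97 and -0.68. At ZT6 and ZT9, 30 of the 31 stayed above -0.7 on that scale under both labels, and 19 did so on edgeR's scale. The TMM factors of edgeR scale libraries by their genes' trimmed mean ratio, and it adds less to low counts. There 15 genes in RTX430 and 10 in Macia lay below -0.7 at ZT1, and 8 did so in both. The 31 had a median log2 fold change of -0.56 (RTX430) and -0.25 (Macia) at ZT1. At ZT15 it was -1.89 (RTX430) and -1.39 (Macia), and all 31 lay below -1. Without the mixed RTX430 control library 28 did so in RTX430, with a median of -1.88, and the others were Sobic.004G130800 (-0.84), Sobic.002G276100 (-0.76) and Sobic.009G113600 (1.75). The value of Sobic.009G113600 rests on 1 count after heat and 0 in controls, and shows no rise. With library totals alone 30 of the 31 lay below -1 in RTX430 without the mixed library.

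The log2 of CPM plus 1 also limits how far a gene with few reads can fall. At ZT1 the median control level of the 31 genes was 2.63 CPM in RTX430 and 2.98 CPM in Macia, against 11.9 CPM under both labels at ZT15. For 10 genes in RTX430 and 9 in Macia, D at ZT1 could not have reached -0.7 even at 0 CPM after heat. Sobic.001G123201 was among these under both labels. At ZT1 it had 0, 0 and 0.154 CPM in heated RTX430 leaves against 1.61, 0.682 and 0.905 CPM in controls, and was listed at 0 in all 3 heated Macia libraries against 1.01, 1.00 and 1.32 CPM in controls. Its D for ZT1 was nonetheless -0.25 (RTX430) and -0.40 (Macia). Above -0.7 at all 6 other comparisons were 11 genes on edgeR's scale and 5 with library totals alone, and 1 gene, Sobic.001G230700, was so on both. It had 2.26, 2.48 and 1.23 CPM in heated RTX430 leaves at ZT1 against 3.22, 1.36 and 0.678 CPM in controls, and 30.1, 40.5 and 24.9 CPM at ZT9 against 25.5, 32.1 and 29.3 CPM, so that both pairs of groups overlapped. At ZT15 it had 3.82, 5.94 and 6.57 CPM in heated RTX430 leaves against 22.7, 33 and 13.3 CPM in controls, and 8.82, 9.11 and 12.0 CPM in heated Macia leaves against 34.3, 32.1 and 25.9 CPM in controls. In RTX430 the share of counts in the 100 most counted genes of a library also differed between heated and control libraries, in a direction that changed with the hour. In RTX430 at ZT1 it spanned 40.5 to 45.2% in heated and 32.4 to 41.6% in control libraries, which overlap. At ZT15 it spanned 28.8 to 35.7% in heated and 16 to 28.5% in control libraries (16 to 28.4% without the mixed library). At ZT6 the share ran the other way in RTX430, with 30.3 to 37.5% in heated and 39.8 to 47.1% in control libraries. Its part in these differences was not tested.

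**Figure D3:**
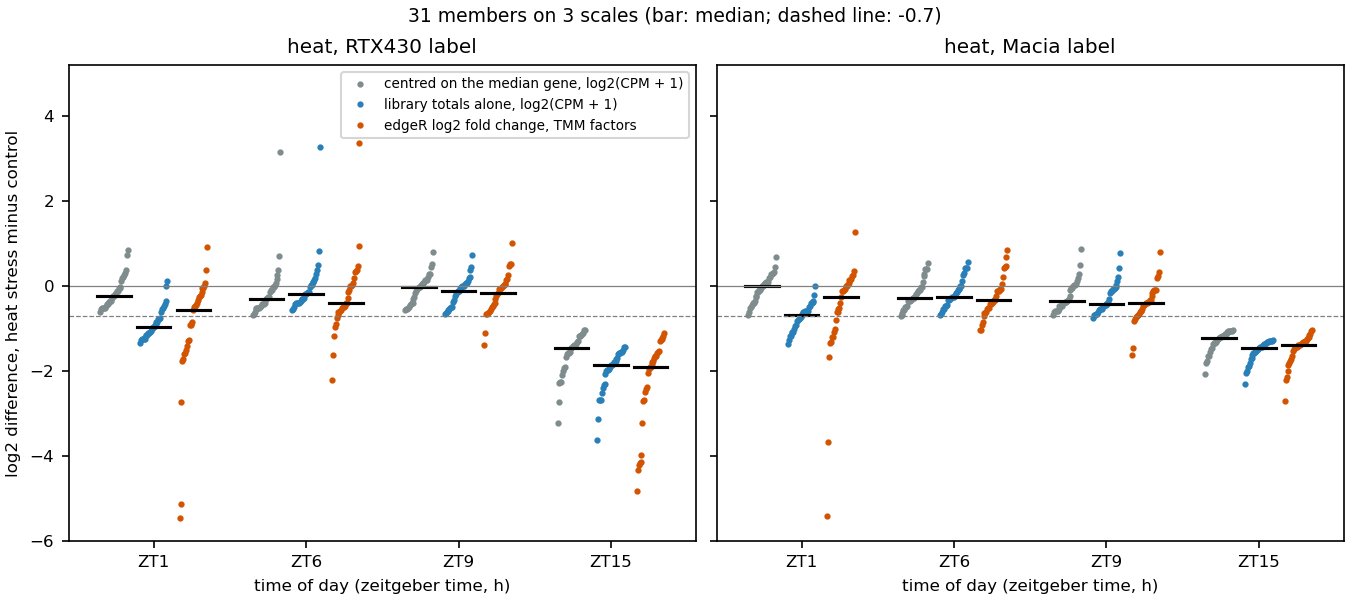
Log2 difference, heat stress minus control, of the 31 genes at each zeitgeber time (h) in RTX430 (left) and Macia (right) on 3 scales: centred log2(CPM + 1) as in the rule (grey), the same without centring (blue) and edgeR's log2 fold change with TMM factors (orange); each point is a gene, bars are medians and the dashed line is -0.7. At ZT1 the medians in RTX430 are -0.24, -0.97 and -0.56, while at ZT15 every gene lies below -1 on all 3 scales with the mixed library included.

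Cold-experiment libraries at ZT6, ZT9 and ZT15 had no part in the rule beyond the filter on mean CPM, so the level of the 31 genes over the day was tested there with edgeR's quasi-likelihood test, ZT15 controls minus the mean of the ZT6 and ZT9 controls. A gene had to be present at ZT15 in heat-experiment controls to fall there, so a high level at ZT15 was favoured by the choice of genes. All 31 passed the filter on low counts. In SC224 controls, 7 of the 31 were called at an adjusted p under 0.05, 6 higher and 1 lower at ZT15, where 22% of 18248 genes were called and 11.4% were called higher. In RTX430 controls, 10 were called, 9 higher and 1 lower, where 22.4% were called and 11.5% were called higher. The median log2 difference of the 31 was 0.24 in SC224 and 0.88 in RTX430, against 0.04 over all genes under both labels. With library totals alone, 13 in SC224 and 17 in RTX430 were called, all higher at ZT15, where 36.8% and 30.5% of all genes were called and 32.1% and 25.3% were called higher.

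The test of the difference between the labels called 0 of the 31, against 0.115% of all genes, with 2 of the 31 at an unadjusted p under 0.05. Those were Sobic.003G366600 (SC224 minus RTX430 of -2.23, SE 0.89) and Sobic.007G042300 (-0.57, SE 0.21), with edgeR adjusted p = 0.572 and 0.4998. By CPM of the library total, ZT15 had the highest control mean of the 4 times for 23 of the 31 in SC224 and 23 in RTX430 of the cold experiment, against 58.1% and 54.7% of all genes kept. Without the mixed SC224 control library the count in SC224 was 22, against 58% of all genes kept. Among heat-experiment controls, which the rule used, this held for 26 (RTX430) and 30 (Macia), where 60.8% and 56.3% of all genes kept did so, and without the mixed RTX430 control library for 25 (RTX430), where 62.3% did.

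The same 6 genes were called higher at ZT15 under both labels. Sobic.003G390100 had 42.1, 39.3 and 30.5 CPM in SC224 controls at ZT15, against 3.46, 2.87 and 4.11 CPM at ZT6 and 8.40, 2.80 and 6.66 CPM at ZT9. Its log2 difference was 2.56 (SE 0.40) in SC224 with edgeR adjusted p = 8.48e-06, and 1.81 (SE 0.39) in RTX430 with adjusted p = 0.000815. No ZT15 library of either label overlapped those of ZT6 or ZT9.

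Sobic.001G123201 had 6.17, 5.28 and 6.33 CPM in SC224 controls at ZT15 and 31.2, 18.2 and 21.2 CPM in RTX430 controls. At ZT6 it had 0.990, 1.72 and 1.54 CPM in SC224 and 3.20, 4.23 and 2.57 CPM in RTX430. The log2 difference between ZT15 and the earlier times was 1.27 (SE 0.31) in SC224 and 1.94 (SE 0.27) in RTX430, with edgeR adjusted p = 0.00222 and 9.53e-07. No ZT15 library overlapped the ZT6 libraries of its label.

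Sobic.001G356600 rose at ZT15 to 120, 120 and 135 CPM in SC224 controls and 103, 115 and 109 CPM in RTX430 controls. At ZT6 and ZT9 it had 24.2 to 68.4 CPM in SC224 and 24 to 49.5 CPM in RTX430. Its log2 difference was 1.27 (SE 0.14) in SC224 and 1.23 (SE 0.14) in RTX430, the closest match between the labels among the 6. The other genes called in both were Sobic.004G130800 (1.21 in SC224 and 1.12 in RTX430), Sobic.004G115350 and Sobic.006G266700 (1.06 in SC224 and 1.34 in RTX430).

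**Figure D4:**
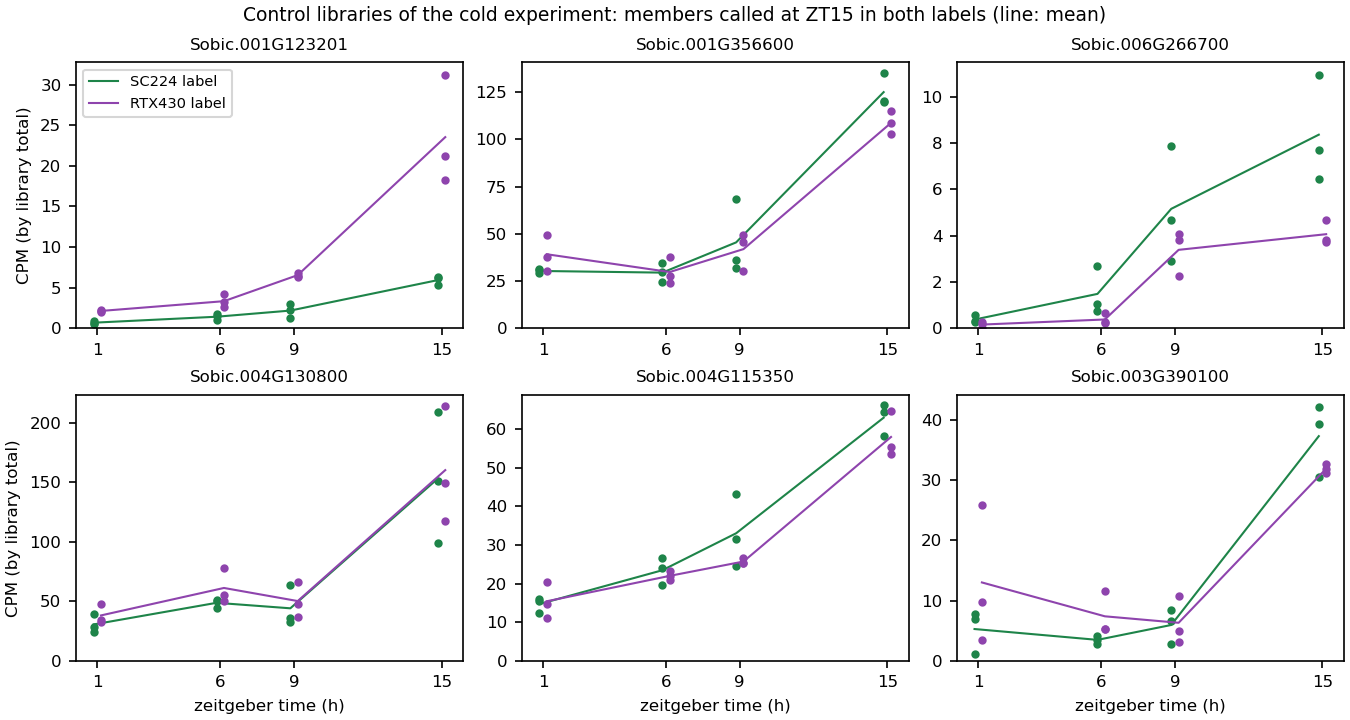
CPM by library total in control libraries of the cold experiment against zeitgeber time (h) for the 6 genes called higher at ZT15 than at ZT6 and ZT9 under both labels; points are libraries and lines join the means of 3 (green SC224, purple RTX430). Every panel is highest at ZT15, and in Sobic.001G123201 RTX430 lies above SC224 at each time.

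Called higher at ZT15 in RTX430, and short of the threshold in SC224, were Sobic.007G042300, Sobic.001G304500 and Sobic.003G366600. Sobic.007G042300 had 95.6, 85.1 and 97.3 CPM in SC224 controls at ZT15 and 88.4, 108 and 100 CPM in RTX430 controls, while at ZT6 it had 75.2, 71.6 and 48 CPM in SC224 and 33.5, 43.1 and 31.7 CPM in RTX430. The ranges of the labels overlapped at ZT15 and not at ZT6. The genes called lower at ZT15 were Sobic.004G151500 in SC224 (-0.71, SE 0.23, edgeR adjusted p = 0.0241) and Sobic.003G301500 in RTX430 (-1.63, SE 0.48, adjusted p = 0.0127). Sobic.003G301500 had 53.1, 225 and 222 CPM in RTX430 controls at ZT15 against 278, 583 and 289 CPM at ZT6 and 324, 532 and 327 CPM at ZT9. The 31 genes thus include some with their highest control level at ZT15 and some with a lower level then.

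Cold did not give a called change in any of the 31 genes at the times outside the rule. Few calls were favoured by the choice of genes, which kept D after cold at ZT1 between -1 and 1 under both labels. In SC224 the edgeR test called 0 at ZT6, ZT9 and ZT15, where 2.84%, 2.71% and 1.10% of all genes were called, and 0, 0 and 2 of the 31 had an unadjusted p under 0.05. In RTX430 it called 0 at ZT6, ZT9 and ZT15, where 3.20%, 2.13% and 1.00% of all genes were called, and 3, 5 and 1 had an unadjusted p under 0.05. DESeq2 also called 0 in each of the 6 comparisons. With so few of all genes called, 0 of the 31 lies near those shares and does not set the 31 apart. The median SE of the 31 in edgeR ran from 0.50 to 0.55 on the log2 scale, so modest changes could have gone uncalled. The edgeR count at ZT9 in RTX430 was 2 without stress replicate 3 of that group.

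At ZT15 the median log2 fold change of the 31 after cold was 0.01 in SC224, with 14 below 0, and -0.40 in RTX430, with 26 below 0. The medians over all genes were -0.03 and 0.02. The test of the difference between the labels called 0 of the 31 and 0% of all genes, with 1 of the 31 at an unadjusted p under 0.05 (Sobic.006G266700, SC224 minus RTX430 of -1.26, SE 0.59). These comparisons share their ZT15 controls with the comparison of times above.

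At ZT15 the unadjusted p was under 0.05 after cold in 3 genes, and none passed adjustment. Sobic.003G390100 had 12.0, 21.5 and 16 CPM in cold SC224 leaves against 42.1, 39.3 and 30.5 CPM in controls, and 21.5, 20.2 and 8.94 CPM in cold RTX430 leaves against 31.9, 32.7 and 31.2 CPM in controls. Its cold libraries lay below its control libraries under both labels, with log2 fold changes of -1.03 (SE 0.47) and -0.93 (SE 0.46) and edgeR adjusted p = 0.541 and 0.671. Sobic.007G042300 had 67.8, 65.7 and 56.6 CPM in cold SC224 leaves against 95.6, 85.1 and 97.3 CPM in controls (-0.40, SE 0.17, adjusted p = 0.498). Sobic.001G428000 in RTX430 had 46.1, 36.3 and 32.5 CPM after cold against 60.0, 49.5 and 57.9 CPM in controls (-0.59, SE 0.26, adjusted p = 0.561).

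**Figure D5:**
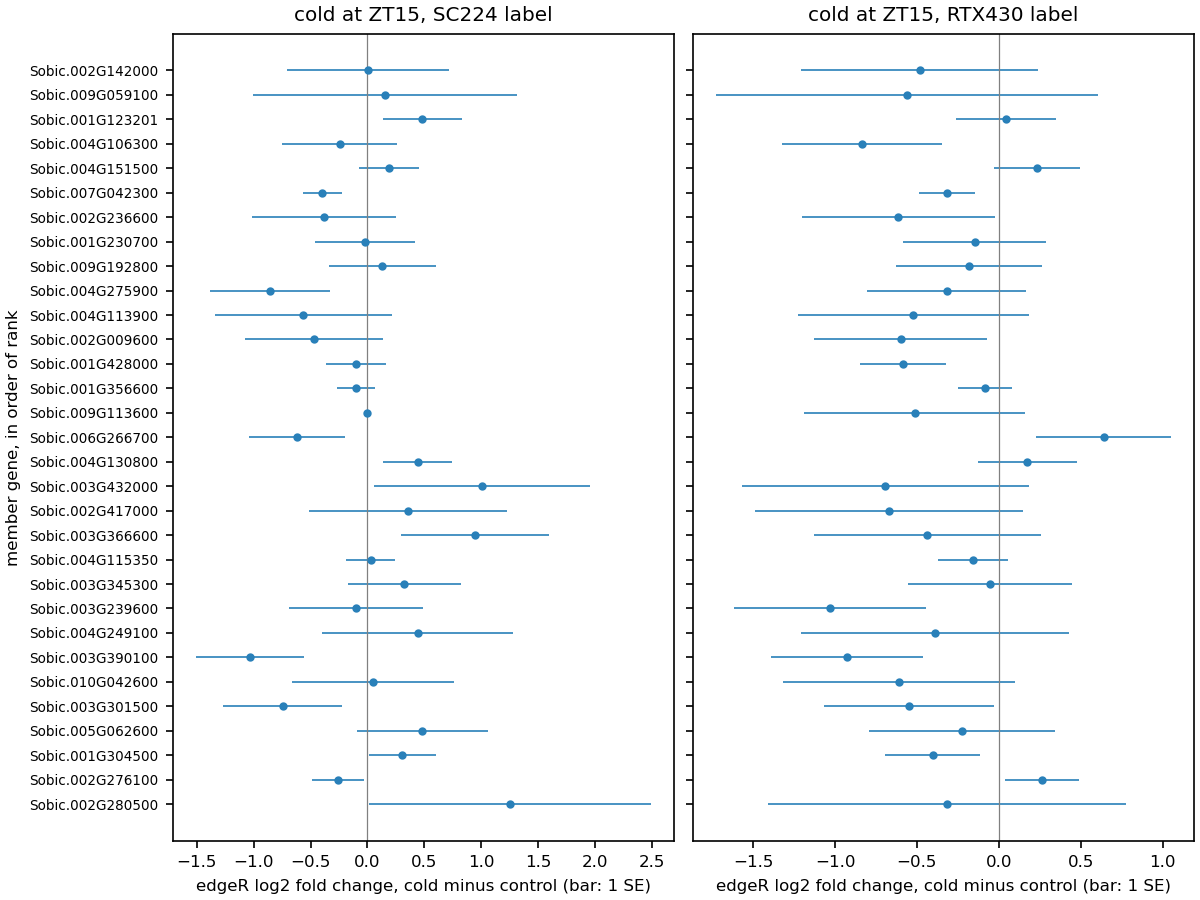
edgeR log2 fold change, cold minus control, at ZT15 for the 31 genes (rows, in order of rank) in SC224 (left) and RTX430 (right); bars are 1 SE. In SC224 14 genes lie below 0 and in RTX430 26 do; Sobic.009G113600 had no counts at ZT15 in SC224 and its point at 0 carries no information.

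At earlier times the lowest adjusted p after cold stood in RTX430 at ZT9 for Sobic.004G115350 and at ZT6 for Sobic.001G230700, both short of the threshold. Sobic.004G115350 had 36.0, 35.8 and 48.1 CPM after cold at ZT9 against 25.3, 25.2 and 26.7 CPM in controls (0.76, SE 0.22, edgeR adjusted p = 0.0626). Sobic.001G230700 had 4.06, 4.97 and 4.45 CPM after cold at ZT6 against 11.4, 13 and 18.6 CPM in controls (-1.38, SE 0.47, adjusted p = 0.121). In each the groups did not overlap. Unadjusted p under 0.05 at both times in RTX430 was found for Sobic.003G432000, with log2 fold changes of 1.90 (SE 0.90) at ZT6 and 2.65 (SE 1.03) at ZT9 and edgeR adjusted p = 0.325 and 0.256. The same held for Sobic.003G239600, with 1.29 (SE 0.58) at ZT6 and 1.84 (SE 0.67) at ZT9 and edgeR adjusted p = 0.292 and 0.207. For both genes the ZT9 groups overlapped in CPM and the ZT6 groups did not. After cold at ZT9 Sobic.003G432000 rested on 7, 8 and 50 counts, with a mean of 5.42 CPM (SD 5.47).

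Levels in SC224 and RTX430 controls, averaged over ZT6, ZT9 and ZT15, differed in 4 of the 31 genes by edgeR, where 17.3% of all genes were called. Sobic.001G123201 was lower in SC224 (-1.63, SE 0.21, adjusted p = 1.29e-07), with its values at ZT15 and ZT6 given above. Sobic.006G266700 was higher in SC224 (1.12, SE 0.27, adjusted p = 0.00213), with 6.42, 7.71 and 10.9 CPM at ZT15 against 3.81, 4.66 and 3.70 CPM in RTX430. Sobic.003G366600 was also higher in SC224 (1.91, SE 0.45, adjusted p = 0.00196), with 1.98, 5.17 and 2.57 CPM at ZT6 against 0, 0.264 and 0.482 CPM in RTX430.

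Sobic.009G113600 had 0 counts in all 9 SC224 controls of these times and 0.685 to 5.29 CPM in the 9 RTX430 controls (adjusted p = 4.19e-07). Taking 3 counts over the SC224 libraries as the floor, it was at least 41.1-fold lower in SC224 than in RTX430. It was thus present under the RTX430 label of the cold experiment, with group means of 0.457 to 4.06 CPM. Outside the mixed library it was near 0 under that label in the heat experiment. Its median in cold-experiment RTX430 did not reach 3 CPM, so it is not among the genes switched within the RTX430 label. It is the gene counted above through Macia, where its group means ran from 1.13 to 21.3 CPM.

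By the chromosome in their identifiers, the 31 genes were spread over the chromosomes as follows: 7 on chromosome 4, 6 each on chromosomes 2 and 3, 5 on chromosome 1, 3 on chromosome 9 and 1 each on chromosomes 5, 6, 7 and 10. Chromosome 4 held 22.6% of the 31 and 11.9% of all genes kept. No pair lay within 10 identifiers of each other, and the closest pair, Sobic.004G113900 and Sobic.004G115350, lay 13 apart in the order of the table.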

How the data were processed

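Per the labels' protocols, polyA RNA from leaves was isolated with oligo(dT) beads, amplified for 12 PCR cycles and sequenced as 75 nt single-end reads on a NextSeq 500, with 3 biological replicates per group. The authors deposited a single raw count table (34129 genes, 96 libraries). The submitters' processing notes name HISAT2 and DESeq2, without versions or roles. The counter, build, annotation, use of strand and handling of multi-mapping reads are not given in the sources used here, so overlapping or near-identical genes are uncertain. The treatment text gives ZT0 where labels give ZT1. A heat library of RTX430 (stress replicate 2) titled as time 1 but otherwise labelled ZT2 was kept at ZT1 by its title. In RTX430 after cold, replicates at ZT9 and ZT15 are numbered 1, 3 and 4.

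CPM and D were computed from the deposited counts as described with the rule. Tests used edgeR 4.0.16 (quasi-likelihood, TMM factors) in R 4.3.3, fitted to the means of 16 groups over the 48 cold-experiment libraries. The filterByExpr filter on the groups, with a count of at least 10 and a total of at least 15, left 18248 genes. P-values were adjusted by Benjamini-Hochberg over all of these and genes called under 0.05. Heat-experiment log2 fold changes come from a like model fitted to the 48 heat-experiment libraries (18648 genes) and are descriptions. The functions were tested on simulated data. Alternatives were DESeq2 1.42.0, RLE factors, library totals alone, no filter, a fit to a comparison's own libraries, a replicate block and leaving out libraries. The 2 tests of differences between labels, the uncentred rule, the rule without the mixed SC224 library and the heat fit without the mixed RTX430 library were added after seeing the data.

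The members, lists and tests were chosen with earlier results of these data known. Genes were named by rule: the first 8 by rank, the 6 with the most CPM in heat-experiment controls at ZT15, 3 inside and 3 outside the edge, the 3 most raised at ZT15 under both labels and the 2 of each direction between genotypes. Other genes named were chosen after their values were seen. Lists by product name, tissue markers and promoter motifs were not used here, since no identifier matched the reference table (assembly Sorghum_bicolor_NCBIv3). Depth limits precision to counting error of the totals given, and PCR copies were not told apart, so the floor of 3 counts covers counting error only.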

Additional observations from a re-analysis of the deposited data

How the results depend on the processing

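Most limits concern which genes qualify. The rule gave 31 genes. Of them, 16 still qualified (25 in all) with TMM factors and no centring, 14 (15 in all) with a mean of at least 5 CPM, 20 (25 in all) with a pseudocount of 0.5, and 5 (21 in all) with library totals alone, a setting chosen after seeing the data. Leaving out each heat library at ZT15 in turn, and the library labelled ZT2, left 19 to 31 of them, with 20 without Macia stress replicate 3 and 19 without Macia control replicate 3, and 8 genes were lost in both cases. In all, 21 to 57 genes then qualified, with 57 without Macia stress replicate 2 and 41 without Macia control replicate 1. With a mean of at least 1 CPM 45 did, 29 of them among the 31. Without the mixed RTX430 control 27 qualified, and without the mixed SC224 control 30. The cause of these shifts was not tested.

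Among the tests, library totals alone called 1 member after cold at ZT6 in RTX430, and 13 in SC224 and 17 in RTX430 for ZT15 against ZT6 and ZT9. Leaving out a library gave 0 to 2 for cold at ZT9 in RTX430, 5 to 7 for ZT15 in SC224 and 8 to 13 in RTX430. Cold at the other times and in SC224 stayed at 0 when a library was left out, and the genotype comparison stayed at 4. Whether the replicate numbers pair the libraries is not settled here. Over 16 pairs of same-numbered stress and control libraries the correlation of deviations ran from -0.352 to 0.453, with 6 over 0.1. Replicates 1 and 3 in RTX430 at ZT9 gave 0.453 and 0.360. Libraries of unlike number were not compared. With a replicate block the counts were 8 in SC224 and 11 in RTX430 for ZT15, 4 between genotypes and 0 after cold. With 44 of 186 stress values at 3 counts or fewer, the depth limits how far the folds of the low genes can be told.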
